A study of Triticum aestivum with 10 samples.

Results

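The photosynthesis genes PRK (LOC543283), PsbP (LOC543290), PsbO (LOC543291) and petC were followed in wheat anthers on 10 Affymetrix Wheat Genome Arrays. They are 4 of the 771 genes that the platform annotation names, and all probe sets it pairs with them were taken, which gave 6 of the 61290 on the array. PRK and PsbO had 1 probe set each, and PsbP and petC had 2 each. The plants were the thermosensitive genic male sterile (TGMS) line BS366, a line that sets fertile pollen under one temperature regime and is male sterile under another. Sterile anthers came from plants held at 10 °C for 5 days, and fertile anthers from plants kept at 20 °C, both under a 12 h photoperiod after vernalization in the field. Within each condition anthers were sorted into 5 lengths (1.5 mm, then 2.0, 2.2 and 2.5 mm, and 3.0 mm), and each length was measured on 1 array per condition. All 10 arrays carry the label of meiosis for their stage. From morphology, however, the paper places the end of mitosis and the change to meiosis I at the 2.2-mm stage. Whether anthers of the same length are at the same point of development in both conditions was not tested.

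The 4 genes cover separate steps of photosynthesis. PsbO and PsbP are extrinsic proteins of photosystem II that stabilise the cluster where water is oxidised. petC is the Rieske iron-sulfur protein of the cytochrome b6f complex, which carries electrons from photosystem II towards photosystem I. PRK, phosphoribulokinase, is the Calvin cycle enzyme that remakes ribulose bisphosphate, the acceptor of carbon dioxide. All 4 proteins are encoded in the nucleus and work in the chloroplast, and green cells of the anther wall contain chloroplasts.

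Values are MAS5 signals, a linear measure of brightness for each probe set. For tests, a floor of 4.05 was put under the signals (their 20th percentile) before log2 was taken. The 30590 probe sets in the brighter part of the array were tested with limma at a Benjamini-Hochberg adjusted p of 0.05. With 1 array for each length and condition, a difference at a single length had no replicate check. The lengths stood in for replicates, so the comparison of the conditions asks whether a difference is large against its scatter over 5 lengths. Both slopes of a probe set were judged against 1 estimate of scatter that all 10 arrays share, so a sterile slope is not set against sterile scatter alone. Of the 6 probe sets, 5 passed the filter on dim signals. The second petC probe set did not, with signals of 0.324 to 17.7 that were under the floor on 6 of the 10 arrays, so no level is given from it.

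The arrays had similar mean signals (118 to 122 on sterile and 118 to 125 on fertile ones). At each of the 5 lengths the 18S rRNA control was brighter in the sterile sample (32.3 to 2833, against 2.22 to 315 on fertile arrays). Markers of the tapetum, the layer that feeds the pollen, were 4 probe sets of 2 genes, raftin1a and raftin1b (none at 0). They summed to 1826 to 9189 on sterile and 5494 to 19133 on fertile arrays. At all 5 lengths that sum was lower in the sterile sample (2.08- to 4.11-fold), and in both series it was higher at 2.2 than at 2.0 mm, lower at 2.5 than at 2.2 mm and highest at 3.0 mm. Markers of dividing cells (20 probe sets of 6 genes, none at 0) summed to 32102 to 49665 and 12253 to 40746, the sterile sum being 1.22- to 2.62-fold higher at each length. Starchy endosperm markers (11 probe sets of 6 genes) summed to 88.5 to 156 and 92.1 to 147, and green tissue markers (28 probe sets of 1 gene, rbcl) to 9836 to 12592 and 9830 to 16967. The ratio of the sterile to the fertile green tissue sum had no steady direction (0.87, 1.17, 0.69, 1.04 and 0.87 along the 5 lengths). Its highest sum, 16967, was on the fertile 2.2-mm array. The part of these differences in the results below was not tested, and in whole anthers fewer cells of a type and less RNA per cell cannot be told apart. The fertile 2.2-mm array had the brightest hybridization controls (750, against 233 to 335 on sterile and 284 to 356 on the other fertile arrays), and the fertile 3.0-mm array had the lowest mean correlation with the other arrays (0.786).

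PRK had less signal in sterile anthers at every length. Its signal on the sterile arrays was 57.5, 83.3, 188.0, 151.3 and 433.8 from the shortest to the longest anthers, against 187.1, 217.9, 773.1, 1006.9 and 1572.8 on the fertile arrays. The sterile arrays at 1.5, 2.0 and 2.5 mm were below the lowest fertile array, and the brightest sterile array stood between fertile 2.0 and 2.2 mm. The sterile signal was 3.26-, 2.62-, 4.11-, 6.66- and 3.63-fold lower along the 5 lengths. The mean log2 difference was -1.94 (SE 0.21, 95% interval -2.42 to -1.46, adjusted p = 0.038 from limma), or 3.85-fold lower.

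That made PRK the 1 member of 5 tested that passed the comparison of the conditions, where 0.18% of all tested probe sets were called lower. The call was lost when the 1.5-, 2.0-, 2.2- or 2.5-mm pair was left out (adjusted p = 0.079, 0.093, 0.21 and 0.16 from limma, with log2 differences of -2.01, -2.08, -1.92 and -1.75). It passed without the 3.0-mm pair (adjusted p = 0.011 from limma, log2 difference -1.97). By an exact sign-flip permutation test on the 5 values p was 0.0625 (two-sided), which is as low as 5 lengths allow.

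**Figure D1:**
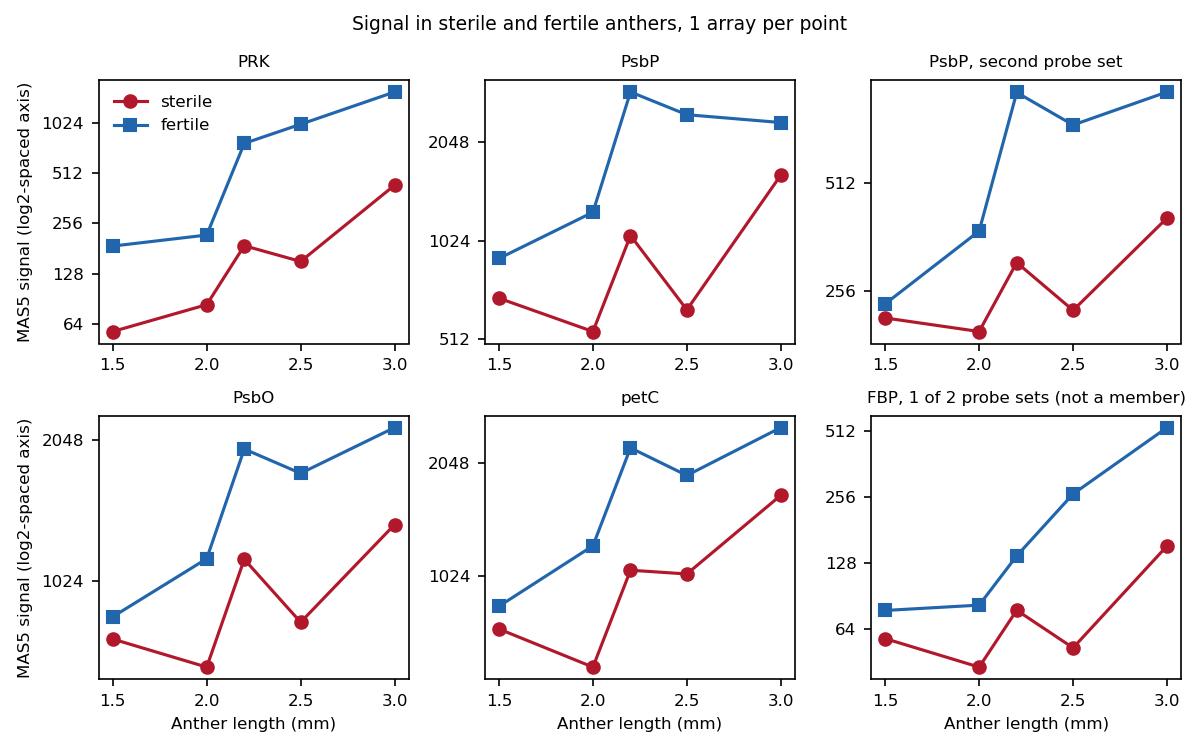
MAS5 signal (log2-spaced vertical axis) against anther length in mm on the sterile (red circles) and fertile (blue squares) arrays, 1 array per point. Panels show the 5 tested member probe sets and 1 of the 2 tested FBP probe sets, the one whose fertile slope passed (FBP is not a member). The other FBP probe set, not drawn, was higher in sterile anthers at 3 of 5 lengths. The sterile line lies below the fertile line at all 5 lengths in each panel, and the fertile PRK signal reaches 1572.8 at 3.0 mm and the sterile one 433.8.

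The extrinsic photosystem II proteins also had less signal in sterile anthers at 5 of 5 lengths, by amounts that did not pass the test. PsbP had signals of 682.0, 539.2, 1060.7, 628.5 and 1624.0 on the sterile arrays from 1.5 to 3.0 mm, against 902.6, 1250.5, 2919.3, 2487.3 and 2353.4 on the fertile arrays. The conditions were closest at 1.5 mm (1.32-fold lower) and 3.0 mm (1.45-fold lower) and farthest apart at 2.5 mm (3.96-fold lower). The mean log2 difference of PsbP was -1.12 (SE 0.24, 95% interval -1.67 to -0.57, adjusted p = 0.10 from limma). Without the 3.0-mm pair it was -1.27 and passed (adjusted p = 0.040 from limma).

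The second PsbP probe set had 214.6, 196.6, 306.8, 225.4 and 408.8 on the sterile arrays, against 235.1, 375.8, 918.6, 745.0 and 921.6 on the fertile arrays. It followed the first probe set closely in each condition (Pearson r = 0.99 over the 5 sterile and 0.98 over the 5 fertile arrays). Its mean log2 difference was -1.11 (SE 0.24, adjusted p = 0.10 from limma). The probe sets parted at the longest anthers, where this one was 2.25-fold lower in sterile anthers.

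PsbO, the manganese-stabilising protein, had the smallest mean difference of the 5 probe sets. Its signals were 771.5, 672.2, 1140.7, 837.8 and 1352.5 on the sterile arrays, against 860.6, 1144.1, 1959.6, 1739.6 and 2177.2 on the fertile arrays. At 1.5 mm the sterile signal was 1.12-fold lower, and at 2.5 mm it was 2.08-fold lower. Over the 5 lengths the log2 difference was -0.69 (SE 0.15, 95% interval -1.04 to -0.34, adjusted p = 0.10 from limma).

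petC had 741.2, 586.8, 1063.1, 1038.9 and 1683.2 on the sterile arrays, against 852.3, 1234.7, 2251.1, 1900.9 and 2549.7 on the fertile arrays. Here the conditions were farthest apart at 2.0 and 2.2 mm (2.10- and 2.12-fold lower) and not at 2.5 mm (1.83-fold lower). The mean log2 difference was -0.77 (SE 0.16, 95% interval -1.14 to -0.39, adjusted p = 0.10 from limma). In petC 2 sterile arrays lay below the lowest fertile array, against 3 in each of the other 4 probe sets.

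**Figure D2:**
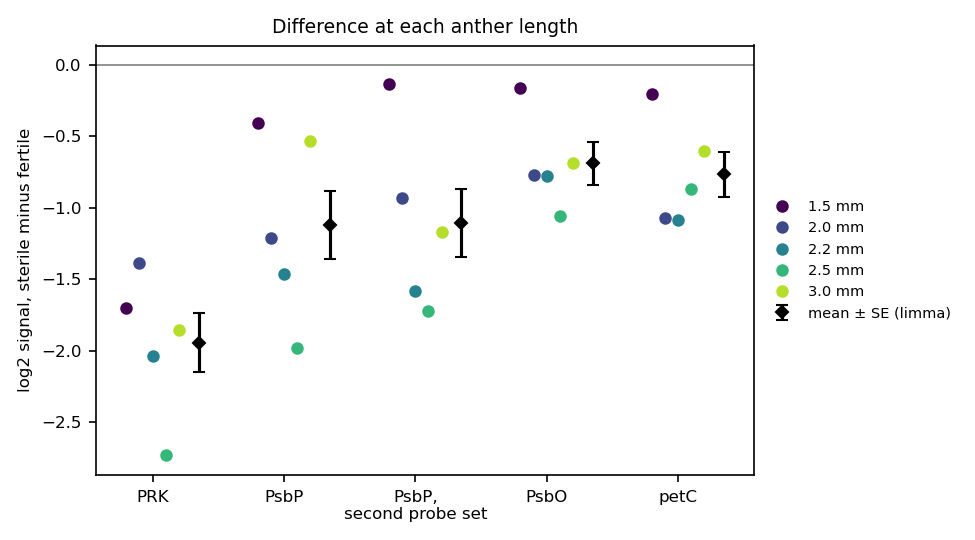
Log2 signal, sterile minus fertile, at each anther length (coloured points) with the limma mean and its standard error (black diamonds) for the 5 tested probe sets. All 25 points lie below 0, those of PRK from -1.39 to -2.73, and at 1.5 mm the other 4 probe sets lie between -0.13 and -0.40.

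Set against the rest of the array, the number of members at least 2-fold lower in sterile anthers was 1, 3, 4, 4 and 2 of 5 from the shortest to the longest anthers. The share of all tested probe sets past that fold was 6.11%, 7.01%, 7.17%, 10.6% and 10.8%. At 1.5 mm the member was PRK, and at 3.0 mm the members were PRK and the second PsbP probe set. The median log2 difference of the 5 members over the lengths was -1.11, beside -0.02 for all tested probe sets.

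The size of the difference was compared between the genes. The smallest permutation p that 5 lengths allow lies above the threshold, so no pair could pass. The test therefore cannot decide whether the genes differ in this size, and the values are given as a description. The PRK log2 difference was more negative than that of PsbP at 5 of 5 lengths, by 0.82 on average (SD 0.49), than that of PsbO by 1.26 (SD 0.41) and than that of petC by 1.18 (SD 0.59). An exact sign-flip permutation test gave p = 0.0625 for each of these pairs, the smallest 5 lengths allow, and 0.125 after Benjamini-Hochberg adjustment over the 6 pairs of genes. PsbO and petC differed by 0.08 on average (SD 0.22, adjusted p = 0.44, exact permutation test), with single lengths between -0.18 and 0.31.

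Along the fertile series PRK rose with anther length. Its fertile signal was 8.40-fold higher at 3.0 than at 1.5 mm and was higher at each of the 4 steps. The slope was 2.26 log2 units per mm (SE 0.39, 95% interval 1.39 to 3.13, adjusted p = 0.016 from limma). This slope passed without the 2.0-, 2.2- or 2.5-mm pair and not without the 1.5-mm pair (2.46, adjusted p = 0.064 from limma) or the 3.0-mm pair (2.62, adjusted p = 0.11).

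PsbP rose in fertile anthers by its second probe set, whose slope was 1.35 log2 units per mm (SE 0.33, adjusted p = 0.047 from limma) and whose signal was 3.92-fold higher at 3.0 than at 1.5 mm. Its call was lost without the 1.5-, 2.0-, 2.5- or 3.0-mm pair (slopes of 0.93, 1.28, 1.33 and 1.91, adjusted p = 0.38, 0.14, 0.081 and 0.11 from limma). The main PsbP probe set had a slope of 1.0 (SE 0.40, adjusted p = 0.18 from limma) and reached its highest fertile signal at 2.2 mm, not at 3.0 mm. Its slope was 0.57 without the 1.5-mm pair and 1.68 without the 3.0-mm pair. PsbO had a fertile slope of 0.91 (SE 0.25, adjusted p = 0.064 from limma) and a 3.0-mm signal 2.53-fold that at 1.5 mm. For petC the fertile slope was 1.05 (SE 0.27, adjusted p = 0.052 from limma) and the ratio of the end lengths 2.99. Thus 2 of 5 members passed, where 2.34% of all tested probe sets were called higher with length, and the members' median slope was 1.05, beside -0.03 for all tested probe sets.

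In the sterile series no member passed the test of a slope. PRK had a sterile slope of 1.90 log2 units per mm (SE 0.39, 95% interval 1.03 to 2.77, adjusted p = 0.34 from limma), and its signal at 3.0 mm was 7.55-fold that at 1.5 mm. The log2 difference between the end lengths was 2.92 in sterile and 3.07 in fertile anthers, so the sterile PRK series covered 94.9% of the fertile range from a start 3.26-fold lower. That share rests on the 3.0-mm pair, and from 1.5 to 2.5 mm it was 57.5% (1.40 in sterile and 2.43 in fertile anthers). The sterile slopes were 0.78 for PsbP, 0.59 for its second probe set, 0.54 for PsbO and 0.87 for petC (adjusted p = 0.47 to 0.72 from limma). Without the 3.0-mm pair they were 0.11, 0.22, 0.28 and 0.59, and without the 1.5-mm pair 1.25, 0.84, 0.76 and 1.31. Their sterile signals at 3.0 mm were 2.38-, 1.90-, 1.75- and 2.27-fold those at 1.5 mm, which is 90.5%, 47.2%, 60.5% and 74.8% of the fertile log2 range. From 1.5 to 2.5 mm, with the 3.0-mm pair left aside, the shares were -8.05% for PsbP (whose sterile signal was lower at 2.5 than at 1.5 mm), 4.26%, 11.7% and 42.1%.

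Among all tested probe sets 0% were called higher with length in sterile anthers, and 2447 had an unadjusted p under 0.05 from limma in either direction. When the sterile arrays were fitted without the fertile ones, 295 probe sets passed (189 higher and 106 lower with length). PRK was among the higher ones (SE 0.27, against 0.39 in the shared fit, adjusted p = 0.041 from limma). The fertile series fitted alone gave 0 calls, and PRK then had an adjusted p of 0.12 from limma.

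The difference between the slopes was tested directly and no member passed, nor did any other probe set (0% called lower, with 3653 at an unadjusted p under 0.05 from limma in either direction). For PRK the sterile minus fertile slope was -0.36 log2 units per mm (95% interval -1.59 to 0.87). It was -0.22 for PsbP (-1.47 to 1.03), -0.37 for PsbO (-1.15 to 0.41) and -0.19 for petC (-1.03 to 0.66). The second PsbP probe set had the most negative value, -0.76 (-1.82 to 0.29). Leaving out 1 length moved the value between -1.0 (without the 3.0-mm pair) and -0.16 (without the 2.5-mm pair) for PRK. For the second PsbP probe set it lay between -1.69 (without the 3.0-mm pair) and -0.09 (without the 1.5-mm pair). For the other members it changed sign, from -1.56 to 0.68 for PsbP, -0.88 to 0.049 for PsbO and -0.74 to 0.51 for petC. The 95% intervals include slopes in sterile anthers that are flatter by more than 1 log2 unit per mm as well as steeper ones. The test therefore does not show that the series run parallel.

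**Figure D3:**
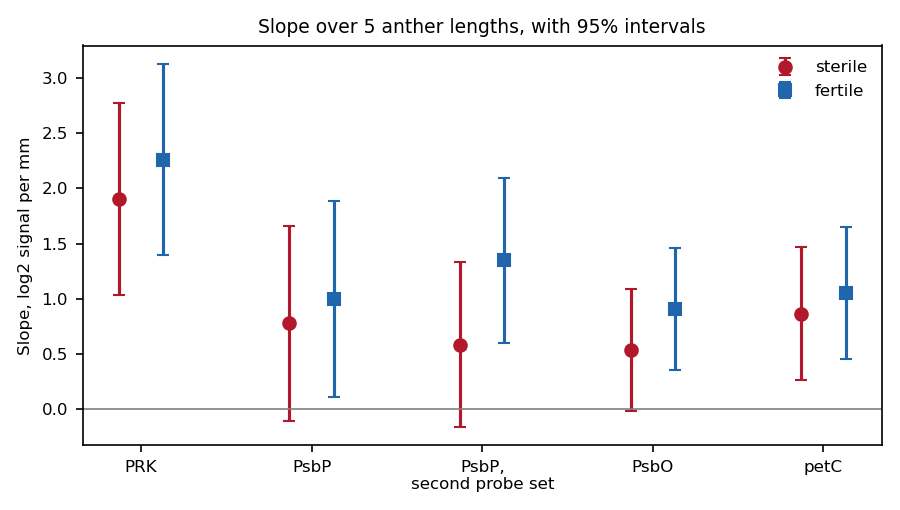
Slope of log2 signal per mm of anther length in sterile (red circles) and fertile (blue squares) anthers, with 95% intervals from limma, for the 5 tested probe sets. The sterile slope is the lower one in all 5, and the intervals of the conditions overlap for each probe set.

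The steps between neighbouring lengths were not alike in the conditions. From 2.0 to 2.2 mm all 5 members were at least 1.5-fold higher on the longer anthers in both series, where 10.2% of all tested probe sets in sterile and 9.49% in fertile anthers were that much higher. PRK was 2.26-fold higher at 2.2 than at 2.0 mm in sterile and 3.55-fold higher in fertile anthers, and PsbP 1.97- and 2.33-fold. In PsbO (1.70- and 1.71-fold) and petC (1.81- and 1.82-fold) the step had nearly the same size in sterile and fertile anthers. The fertile 2.2-mm array behind this step is the one with the brightest hybridization controls. At its other end, the fertile 2.0-mm array had the lowest log2 ratio of 3' to 5' signal for the actin control (-3.52, against -1.50 to 1.32 on the other arrays). For the GAPDH control that ratio was -2.62 on the fertile 2.0-mm and -2.63 on the fertile 2.2-mm array.

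From 2.5 to 3.0 mm the larger ratios were in sterile anthers. All 5 were at least 1.5-fold higher at 3.0 mm in sterile anthers, where 12.3% of all tested probe sets were, and in fertile anthers PRK alone was, where 16.7% were. The sterile ratios were 2.87 for PRK, 2.58 for PsbP, 1.81 for its second probe set, 1.61 for PsbO and 1.62 for petC, beside fertile ratios of 1.56, 0.95, 1.24, 1.25 and 1.34. This step rests on 1 array at each end, and the fertile 3.0-mm array is the one that correlated least with the others.

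At the remaining steps the sterile series had more ratios under 1. From 1.5 to 2.0 mm PsbP, its second probe set, PsbO and petC were lower at 2.0 mm in sterile anthers, with ratios of 0.79, 0.92, 0.87 and 0.79, while all 5 members were higher at 2.0 mm in fertile anthers (ratios of 1.16 to 1.60). From 2.2 to 2.5 mm all 5 sterile signals were lower at 2.5 mm (ratios of 0.59 to 0.98), and in fertile anthers those of PsbP, PsbO and petC were too (0.81 to 0.89) while PRK had a ratio of 1.30. A step within 1 condition has no replicate check, and steps averaged over the conditions were not tested.

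**Figure D4:**
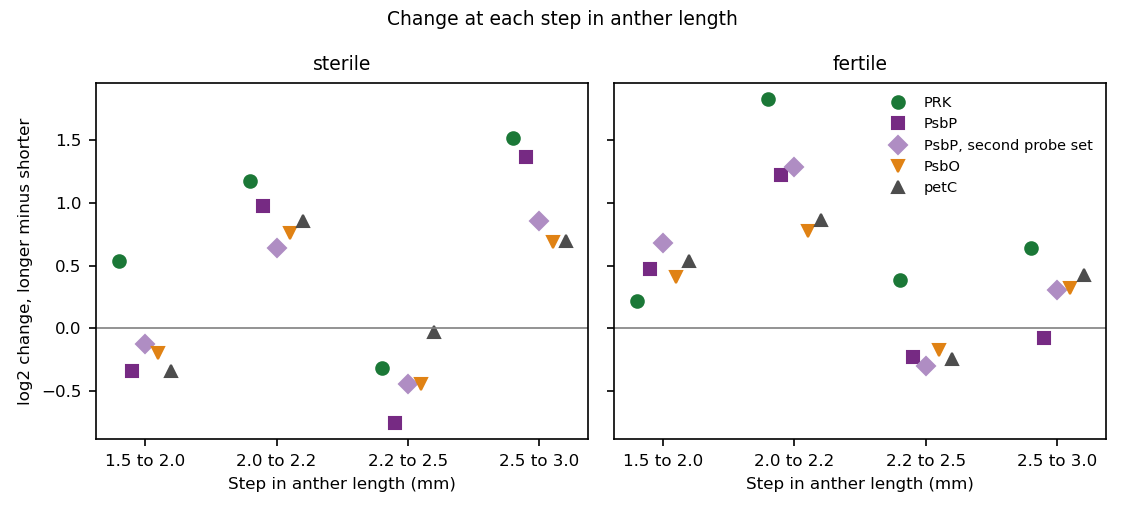
Log2 change in signal between neighbouring anther lengths, longer minus shorter, in sterile (left) and fertile (right) anthers for the 5 tested probe sets. In sterile anthers every point is above 0 from 2.0 to 2.2 mm and from 2.5 to 3.0 mm and below 0 from 2.2 to 2.5 mm, and the tallest fertile step is that of PRK from 2.0 to 2.2 mm (1.83).

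How far the sterile series followed can also be read from the fertile arrays each sterile array exceeded. In all 5 members the sterile arrays at 1.5 and 2.0 mm exceeded none of the 5 fertile arrays, the one at 2.2 mm exceeded 1 and the one at 3.0 mm exceeded 2. At 2.5 mm petC exceeded 1 fertile array and the other members none. Every sterile signal at 3.0 mm thus lay above fertile 2.0 mm and below fertile 2.2 mm.

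The members had like patterns over the 10 arrays, with Pearson r from 0.93 to 0.98 and Spearman rho from 0.92 to 1.0 between pairs of probe sets. Within the sterile arrays r was 0.86 to 0.99 and within the fertile arrays 0.90 to 1.0. These are descriptions over arrays that share their scaling, and the points share the treatment and the order of lengths. PsbO and petC were the most alike over the fertile arrays (r = 0.999), and PRK and PsbP the least alike over all arrays.

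Other photosynthesis genes of the annotation gave a mixed picture. Of 31 further probe sets of 3 genes, 10 were tested (8 of rbcl, named after the large subunit of Rubisco, and 2 of FBP, fructose bisphosphatase, which acts in the Calvin cycle and in sucrose synthesis). None of the 10 passed the comparison of the conditions, and their median log2 difference was -0.38. From the shortest to the longest anthers 3, 2, 1, 4 and 1 of the 10 were at least 2-fold lower in sterile anthers. From 2.0 to 2.2 mm 5 of the 10 were at least 1.5-fold higher in fertile anthers and 1 in sterile anthers. From 2.5 to 3.0 mm these counts were 2 in fertile and 4 in sterile anthers. The shares of all tested probe sets for these folds are given above. The FBP probe set whose fertile slope passed had signals of 57.7, 42.8, 77.7, 52.4 and 152.6 on the sterile arrays, against 77.5, 82.0, 137.5, 263.3 and 528.5 on the fertile arrays. It rose in fertile anthers with a slope of 2.01 log2 units per mm (SE 0.39, adjusted p = 0.022 from limma), while its sterile slope was 0.89 (adjusted p = 0.62) and its difference between the conditions -1.26 (adjusted p = 0.11). The fertile slope of this probe set was not past the threshold without the 2.0-, 2.2- or 3.0-mm pair (1.87, 2.0 and 1.72, adjusted p = 0.062, 0.054 and 0.16 from limma). For the other FBP probe set, higher in sterile anthers at 3 of 5 lengths, the difference was 0.33 (adjusted p = 0.64, limma), so the FBP probe sets differ in sign. Its fertile slope was 0.83 (SE 0.55, adjusted p = 0.43 from limma) and its sterile slope -0.11, so the fertile rise of FBP rests on 1 of its 2 probe sets.

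The brightest rbcl probe set had 4874 to 6308 on sterile and 4604 to 8573 on fertile arrays. In fertile anthers its ratio was 1.86 from 2.0 to 2.2 mm and 0.67 from 2.2 to 2.5 mm, on either side of the array with the brightest hybridization controls, while over the 5 lengths it had a fertile slope of 0.18 (SE 0.21, adjusted p = 0.68 from limma). Its log2 difference between the conditions was -0.05 (95% interval -0.36 to 0.26). The 8 rbcl probe sets had log2 differences from -1.04 to 0.22, and none of them passed in any of the 4 comparisons.

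Of the 866 tested probe sets that have a gene in the annotation, the members left out, the most alike in pattern to PRK was raftin1a, a wheat tapetum protein that is carried to the pollen wall, with Pearson r of 0.98 over the 10 arrays. Its signal was 272 to 1541 on sterile and 992 to 3575 on fertile arrays. LOC778400 and LOC543448, unnamed in the table, followed with r of 0.98 each. For PsbP the nearest was Pgk-1, a phosphoglycerate kinase (r = 0.99, with 307 to 898 on sterile and 488 to 2059 on fertile arrays), ahead of raftin1b (0.98) and raftin1a (0.97). The raftin1a and raftin1b probe sets are also among the tapetum markers summed above. Their likeness and those sums are therefore not separate observations. LOC543167 was nearest to both PsbO (0.99) and petC (0.97), followed for PsbO by raftin1b and LOC543268 (0.98 each) and for petC by LOC543448 and LOC543338 (0.97 each). By Spearman's rho 1, 1, 1 and 2 of the 3 genes nearest to PRK, PsbP, PsbO and petC were the same. Ties in rho were broken by the order of the probe sets. For PRK, raftin1a had the same rho as LOC543448 (0.988 each), which was counted among the 3 nearest while raftin1a was not. The raftin1a and raftin1b probe sets named for PsbP and PsbO were not counted among the 3 nearest by rho. With all tested probe sets counted, those with a higher Pearson r than the nearest gene were 10 for PRK, 6 for PsbP, 0 for PsbO and 8 for petC.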

How the data were processed

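Each deposited value is an intensity on a linear scale, the signal of 1 probe set as the authors obtained it with MAS5 from 1-colour arrays. For MAS5 the version and for the RNA the use of separate plants are not given in the sources read, so p-values measure only the scatter between these samples. The number of arrays limits the precision. Of 61290 probe sets, 111 controls were left out. Signals were floored at the 20th percentile (4.05) and log2 was taken, and the 30590 probe sets with a mean at or above the median were tested in limma 3.58.1 (R 4.3.3; lmFit, eBayes with an intensity trend). The comparison of the conditions used factors for treatment and for length (residual degrees of freedom 4). Slopes came from 1 line per condition, fitted together with 1 shared estimate of the spread (residual degrees of freedom 6). The fits were tested on simulated data. Gene names came from the platform annotation (1273 probe sets, 771 genes, none with several genes) and RefSeq aliases of IWGSC CS RefSeq v2.1. All member probe sets were described, plus the 3 annotated probe sets most correlated with each gene's main probe set and the annotation's other photosynthesis symbols. The members and lists were chosen with earlier results of these data known. Alternatives were quantile normalization, median centring, other floors and filters, no trend, no length factor, the order of lengths, separate fits and leaving out each length. Python 3.11.15 and scipy 1.17.1 gave the exact permutation tests.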

Additional observations from a re-analysis of the deposited data

Results flagged for a closer look

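Among 26 sets of values checked for a single far value, 3 had one (chance alone flags about 1 set in 20). On the fertile 2.2-mm array the hybridization controls were at 750, far above those of the other 9 arrays. The fertile 3.0-mm array had the lowest mean correlation, 0.786, and also the lowest summed signal of dividing-cell markers, 12253. Without the 2.2- and 3.0-mm pairs, an alternative chosen after seeing the data, PRK differed by -1.94 on the log2 scale between sterile and fertile anthers (adjusted p = 0.084 from limma) and had a fertile slope of 2.43 (adjusted p = 0.13), and neither passed.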

How the results depend on the processing

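The sterile minus fertile difference of the 5 members stayed below 0 and their fertile slope above 0 under every alternative run. Leaving out each length, the sterile slopes ranged from 1.62 to 2.06 for PRK, 0.11 to 1.25 for PsbP, 0.22 to 0.84 for its second probe set, 0.28 to 0.76 for PsbO and 0.59 to 1.31 for petC, and none passed. The 1 member called lower in sterile anthers (PRK) became 0 without the filter on dim probe sets, in eBayes without a trend, without the length factor and without the 2.2- and 3.0-mm pairs (added after seeing the data), and 0 to 2 when each length was left out. PRK's adjusted p ranged from 0.011 to 0.23 over these alternatives, and under quantile normalization it was 0.0498, or 0.0499 when that came before the floor (also added). The 2 members called higher with length in fertile anthers became 4 under both forms of quantile normalization. They became 3 with the floor at the 40th percentile, the stricter filter and the order of lengths. In each of these alternatives petC was among those called (adjusted p = 0.038 to 0.048 from limma). The count was 1 under median centring and in eBayes without a trend. It was 0 without the filter, with each treatment fitted alone and without the 2.2- and 3.0-mm pairs, and 0 to 2 when each length was left out. In sterile anthers 0 became 1 with each treatment fitted alone. Leaving out each length, the slope difference ran from -1.56 to 0.68 for PsbP, from -0.88 to 0.049 for PsbO and from -0.74 to 0.51 for petC, above 0 without the 1.5-mm pair in each and without the 2.5-mm pair in PsbP (0.0062), and without the 2.2- and 3.0-mm pairs the sterile slope of PsbP turned to -0.12. The cause was not tested. Over all probe sets the 76 treatment calls (21 higher and 55 lower) became 32 under median centring (14 higher and 18 lower), 0 without the filter, 2 without a trend, 9 without the length factor, 48 without the 2.2- and 3.0-mm pairs and 0 to 596 leaving out a length. The 1627 fertile slope calls became 4 without the filter, 0 in separate fits, 0 without the 2.2- and 3.0-mm pairs and 0 to 1572 leaving out a length. The 0 sterile slope calls became 295 in separate fits, and the 0 slope difference calls became 18 without the 1.5-mm pair. No paired analysis was possible because each group has 1 array, beyond the pairing by length that the treatment fit already holds.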
